A study of Mus musculus with 24 samples.

Results

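The 2 metallothionein genes Mt1 and Mt2, their regulator Mtf1, the zinc exporter genes Slc30a1, Slc30a4 and Slc30a5 and the zinc importer genes Slc39a6, Slc39a8 and Slc39a10 were chosen by name, and all 9 were found among the 23420 genes measured. All 9 also passed the filter on low values that 11885 genes passed, a log2 value of at least 0 in at least 3 libraries. RNA was sequenced from splenic B cells of BALB/c mice in 24 libraries, 3 in each of 8 groups: germinal center (GC) B cells at an early, a peak and a late stage, B cells activated in vivo, B cells 4 h, 12 h and 24 h after activation in vitro, and naive B cells. No genetic change is named for any group, and all cells were bead purified and sorted with antibodies. The labels name no stimulus, immunogen, day after immunization, age, sex, animal or culture, so each p-value reflects the spread among libraries and nothing about animals or cultures.

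Zinc inside a cell is held in balance by proteins that bind it and by 2 families of membrane transporters. Metallothioneins are small, cysteine-rich proteins that bind zinc and copper. SLC30 proteins (ZnT) move zinc out of the cytosol, into organelles or across the plasma membrane, and SLC39 proteins (ZIP) move it into the cytosol. When free zinc rises, the transcription factor MTF-1, encoded by Mtf1, binds short DNA motifs called metal response elements in the promoters of Mt1, Mt2 and Slc30a1. In mouse B cells the importer encoded by Slc39a10 is known to be needed for survival and antigen receptor signalling.

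The coding sequences of Mt1 and Mt2 are shown because the largest changes among the 9 genes are in this pair and because reads of close copies can be confused. They are given 5′ to 3′ from the main GENCODE M21 transcripts, on the plus strand of chromosome 8 of mm10, at chr8:94179311-94180193 for Mt1 and chr8:94172848-94173427 for Mt2, introns left out, with the cysteine codons in capitals.
Mt1 coding sequence: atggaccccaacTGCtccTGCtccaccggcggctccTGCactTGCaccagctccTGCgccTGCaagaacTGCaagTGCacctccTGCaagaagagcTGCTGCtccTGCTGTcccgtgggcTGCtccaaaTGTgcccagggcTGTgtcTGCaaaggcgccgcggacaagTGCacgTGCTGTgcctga
Mt2 coding sequence: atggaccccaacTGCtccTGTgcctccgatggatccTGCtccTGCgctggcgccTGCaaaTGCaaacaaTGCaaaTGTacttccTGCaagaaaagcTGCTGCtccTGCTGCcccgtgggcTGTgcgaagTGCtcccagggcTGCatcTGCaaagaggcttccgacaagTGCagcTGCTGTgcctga
Each holds 186 bases with its stop codon and 61 codons before it, of which 20 encode cysteine, or 32.8%. The cysteine codons stand at the same 20 positions in both, while 79.6% of the bases are identical. Of the 1317 different stretches of 75 bases in the annotated Mt1 transcripts and the 529 in those of Mt2, 0 occur in a transcript of another gene, so a full-length read of either is distinct from the other at this read length.

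The promoters of Mt1, Mt2 and Slc30a1, the 3 genes best known as MTF-1 targets, are shown because 2 of them rose strongly in one group in which the other did not pass the test. They are RefSeq windows on GRCm38.p6, 5′ to 3′ on the plus strand, from 250 bases before to 50 bases after the RefSeq start site. Capitals mark the core of the metal response element, searched as TGCACNC or TGCGCNC on both strands.
Mt1 promoter, chr8:94178839-94179138: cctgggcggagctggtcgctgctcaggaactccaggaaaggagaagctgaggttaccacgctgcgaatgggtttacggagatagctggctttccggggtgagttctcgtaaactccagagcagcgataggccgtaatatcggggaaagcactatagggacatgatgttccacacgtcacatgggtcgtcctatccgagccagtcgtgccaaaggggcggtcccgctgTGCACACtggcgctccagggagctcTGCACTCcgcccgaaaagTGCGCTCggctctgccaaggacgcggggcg
Mt2 promoter, chr8:94172368-94172667: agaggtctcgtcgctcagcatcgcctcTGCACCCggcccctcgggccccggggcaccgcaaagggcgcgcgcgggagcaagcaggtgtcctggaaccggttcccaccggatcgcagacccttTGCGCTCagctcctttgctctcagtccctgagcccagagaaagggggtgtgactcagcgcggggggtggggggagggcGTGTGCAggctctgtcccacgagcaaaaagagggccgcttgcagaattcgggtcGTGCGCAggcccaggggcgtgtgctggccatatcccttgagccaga
Slc30a1 promoter, chr1:191906531-191906830: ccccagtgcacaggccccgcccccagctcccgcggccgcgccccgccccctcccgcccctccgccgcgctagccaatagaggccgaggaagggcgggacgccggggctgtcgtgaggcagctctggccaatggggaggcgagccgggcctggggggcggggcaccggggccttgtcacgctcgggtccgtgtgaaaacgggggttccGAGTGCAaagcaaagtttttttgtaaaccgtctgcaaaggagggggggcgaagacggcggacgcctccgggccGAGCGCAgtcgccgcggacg
The Mt1 window holds 3 cores, all on the gene's strand, the Mt2 window 4, and the Slc30a1 window 2, both on the opposite strand. No marked core overlaps another. Among all 32851 windows of this length, 25.7% hold at least 1 core, 7.11% at least 2, 1.97% at least 3 and 0.517% at least 4. RefSeq windows were matched for 8 of the 9 genes. The Slc30a4 window holds 3 cores, the Slc30a5 window 1 and 1 of the 2 Slc39a8 windows 1, while these letters are in neither Slc39a10 window and not in the Mtf1 window. The main GENCODE transcript begins 7 bases before the RefSeq start site for Mt1, 46 bases after it for Mt2 and 14 bases before it for Slc30a1. Measured against those starts, 2 of the 3 Mt1 cores and 1 of the 2 Slc30a1 cores lie inside the annotated transcript, and all 4 Mt2 cores lie before it. The coding start lies 222 bases after the RefSeq start site for Mt1, 230 for Mt2 and 226 for Slc30a1. Which start sites these cells use was not tested, so the positions hold for the annotated starts only. A match describes the letters only.

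**Figure D1:**
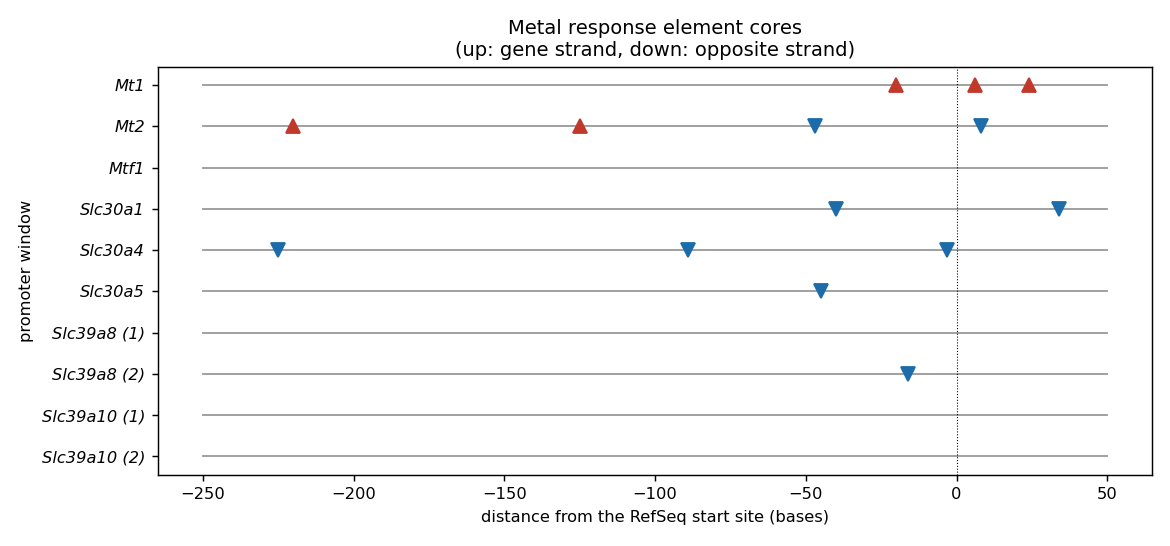
Positions of metal response element cores in the RefSeq promoter windows. The horizontal axis is the distance in bases from the RefSeq start site, each line is 1 window, and triangles mark cores on the gene's strand (up) or the opposite strand (down). The Mt1 window holds 3 cores, the Mt2 window 4 and the Slc30a1 window 2.

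The map of cores by promoter window shows that the Mt1 cores lie close to the RefSeq start site, whereas the Mt2 cores are spread over the window.

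The deposited values are log2 on a scale like CPM, in which every library has the same total. Libraries of a group correlated with r of 0.984 to 0.994 over the genes tested. The labels were checked with marker genes: the summed CPM-like level of 6 B-cell markers was 2530 to 6860 in the 24 libraries, and Bcl6, the regulator of the GC program, averaged 7.80 log2 in peak GC cells, 2.71 in in vivo activated cells and 6.72 in naive cells. Of the Y-linked genes, Ddx3y, Eif2s3y and Kdm5d lay under -5 log2 in each GC library and each library of cells activated in vivo. That limit was set here for a value at the floor, and the most frequent value was -6.178 log2. The summed level of the 4 Y-linked genes listed was 80.3 to 130 in naive and in vitro libraries. Xist, the female marker listed, was at 129 to 166 in naive and 78.0 to 180 in in vitro libraries. It was at 241 to 374 in GC and 257 to 303 in in vivo activated libraries. Naive and in vitro libraries thus hold both Xist and Y-linked RNA. A difference of GC or in vivo activated cells from naive cells therefore cannot be told apart from a difference in the share of male and female mice. GC against in vivo activated cells and in vitro activated against naive cells are not split in this way. In bulk RNA, fewer cells of a type and less RNA per cell cannot be told apart.

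In B cells activated in vivo, Mt1 was 35.7-fold and Mt2 35.3-fold higher than in naive cells, and the next largest rise among the 9 was 3.82-fold, in Slc39a8. Mt1 had log2 values of 7.19, 6.58 and 6.63 in in vivo activated cells, against 1.85, 1.69 and 1.37 in naive cells. Mt2 had 5.69, 4.66 and 4.82 in in vivo activated cells, against -0.40, 0.00 and 0.14 in naive cells. Every in vivo activated library stood more than 4 log2 units above every naive library for both genes, and the first in vivo activated library was the highest of the 24 for each. The log2 fold change of Mt1 was 5.16 ± 0.28 (SE, adjusted p = 1.11e-13). That of Mt2 was 5.14 ± 0.37 (adjusted p = 1.31e-11). Leaving out any 1 library of these groups left 4.97 to 5.27 for Mt1 and 4.82 to 5.34 for Mt2.

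The same 2 genes were low again in GC cells. Mt1 had 1.5, 1.6 and 1.03 in early GC cells and 0.69, 1.98 and 2.39 in peak GC cells. Mt2 had 0.66, 1.15 and -0.08 in early GC cells and -0.38, 0.76 and 1.20 in peak GC cells. All of these lie far below the in vivo activated libraries and among or close to the naive ones. Relative to in vivo activated cells, Mt1 fell by 5.42 ± 0.28 in early GC cells, or 43.0-fold (adjusted p = 1.21e-13), and by 5.11 ± 0.28 in peak GC cells, or 34.6-fold (adjusted p = 2.77e-13). Mt2 fell by 4.48 ± 0.37 in early GC cells (adjusted p = 3.46e-10) and by 4.53 ± 0.37 in peak GC cells (adjusted p = 2.47e-10). These comparisons share the in vivo activated libraries with the one against naive cells. They are not split by the Y-linked genes. In early GC over in vivo activated cells 8 of 10 macrophage, 7 of 7 neutrophil and 4 of 4 erythroid markers tested were higher, and 2 macrophage markers were lower. All 3 stromal markers tested were lower, as the metallothioneins were, among them Cdh5 (-2.74 ± 0.35, adjusted p = 3.37e-07) and Pdgfrb (-1.38 ± 0.22, adjusted p = 9.06e-06). The summed level of the 6 listed, most of it Pecam1, was 51.1 to 59.6 in early GC cells, against 116 to 149 in in vivo activated cells. Of 5 plasma cell markers tested 2 were higher and 3 lower, and of 5 dendritic cell markers 3 were higher and 2 lower. The part of other cells in these values was not tested.

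Between peak GC and naive cells neither metallothionein gene was called, with log2 fold changes of 0.05 ± 0.28 for Mt1 (adjusted p = 0.885) and 0.61 ± 0.37 for Mt2 (adjusted p = 0.134). This rests on the first peak GC library, the lowest of its group for both genes: without it the fold changes were 0.54 for Mt1 (adjusted p = 0.0206) and 1.07 for Mt2 (adjusted p = 0.0102).

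**Figure D2:**
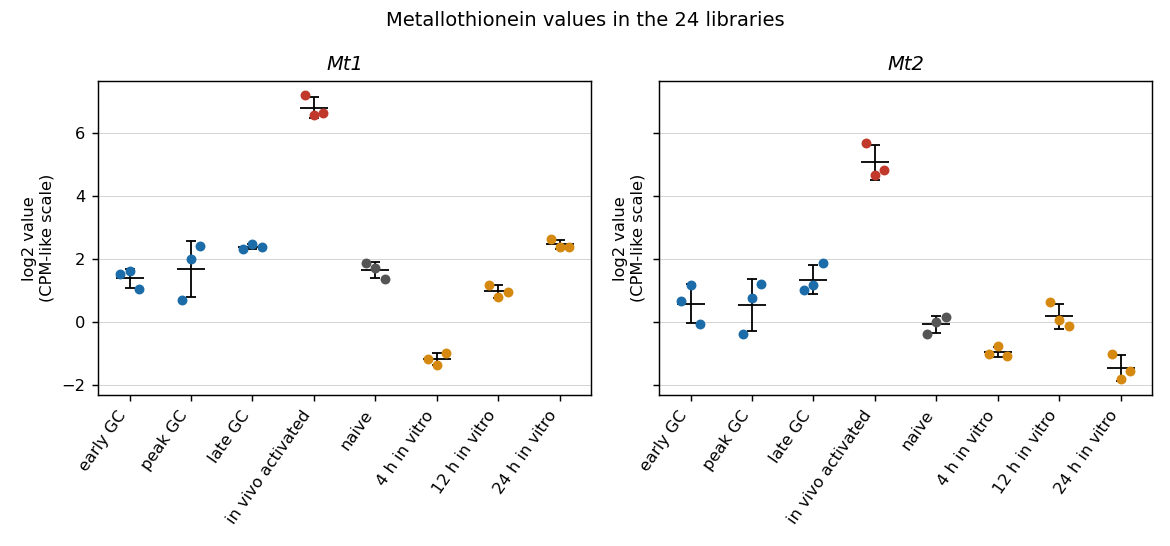
Mt1 and Mt2 in each of the 24 libraries. The vertical axis is the deposited log2 value on a CPM-like scale, points are libraries, horizontal bars are group means and error bars are 1 SD (n = 3). The in vivo activated libraries stand at 6.58 to 7.19 for Mt1 and 4.66 to 5.69 for Mt2, above all other libraries.

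The plot of Mt1 and Mt2 by library shows a single high group for each gene. Set per kilobase of the main transcript, which allows genes to be compared, Mt1 (7.67 log2) and Mt2 (6.03 log2) were the highest and second highest of the 9 in in vivo activated cells, followed by Slc30a5 (5.16 log2). In each of the other 7 groups Slc30a5 was the highest of the 9 by this measure. These ranks depend on the transcript chosen: that of Slc30a5 has 3179 bases, against 7294 over all its annotated exons. Which transcripts these cells use was not tested. In naive cells the mean level per kilobase was 2.51 log2 for Mt1 and 0.88 log2 for Mt2, at rank 5 and rank 8 of the 9. The means of the 8 groups spanned 7.99 log2 for Mt1 and 6.54 log2 for Mt2, wider than in 98.8% and 96.3% of the genes tested, for which the median span was 1.66 log2.

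Markers of other cell types were set beside the rise in in vivo activated cells. Of 10 macrophage and monocyte markers tested, 2 were higher and 7 lower in in vivo activated than in naive cells; their summed CPM-like level was 704 to 833 in in vivo activated cells, against 160 to 172 in naive cells. Most of that sum is Mpeg1, with a mean log2 value of 9.49 in in vivo activated cells and 6.86 in naive cells. Cd68 was the other marker that rose, at 4.33 log2 against 2.68 in naive cells (1.65 ± 0.16, adjusted p = 1.52e-09). The largest falls were those of C1qb (-2.28 ± 0.92, adjusted p = 0.0286) and Cd14 (-2.27 ± 0.63, adjusted p = 0.00263). None of the macrophage markers was at the floor in all libraries of either group. Of 7 neutrophil markers tested 0 were higher and 5 lower, with sums of 2.91 to 3.68 in in vivo activated and 25.8 to 36.2 in naive cells. Of 4 erythroid markers tested 0 were higher and 4 lower, with sums of 13.5 to 19.6 in in vivo activated and 89.4 to 99.9 in naive cells, and Hba-a1 and Hba-a2 were at the floor in both. Of 6 T-cell markers tested 2 were higher and 2 lower, with sums of 215 to 222 in in vivo activated and 47.9 to 58.1 in naive cells; the highest of them, Lck, averaged 7.69 and 5.38 log2 in these groups, and Cd3e averaged -1.55 and 0.47 log2.

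Stromal markers rose in part: of 3 tested, 2 were higher and 1 lower in in vivo activated than in naive cells, with a median of 1.01. Cdh5, an endothelial cadherin gene, was higher by 1.32 ± 0.35 (adjusted p = 0.00163) and Pdgfrb, a receptor gene of mural cells, by 1.01 ± 0.22 (adjusted p = 0.000249). The summed level of the 6 stromal markers listed was 116 to 149 in in vivo activated cells, against 257 to 299 in naive cells. Most of this sum is Pecam1, the marker that fell, at 6.9 log2 in in vivo activated against 8.06 in naive cells. The sum therefore says little about Cdh5 and Pdgfrb. Of 5 dendritic cell markers tested 1 was higher, Itgax (2.98 ± 0.24, adjusted p = 1.07e-10), and 3 lower, with sums of 28.7 to 29.8 in in vivo activated and 38.1 to 39.9 in naive cells. Of 5 plasma cell markers tested 1 was higher, Xbp1 (0.95 ± 0.17, adjusted p = 5.01e-05), and 3 lower, with sums of 412 to 480 in in vivo activated and 434 to 480 in naive cells. The part of other cells in the metallothionein values was not tested.

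After activation in vitro the 2 genes took different courses. Mt1 had 1.85, 1.69 and 1.37 in naive cells, -1.20, -1.38 and -0.98 at 4 h, 1.17, 0.78 and 0.93 at 12 h, and 2.62, 2.38 and 2.36 at 24 h. Mt2 had -0.40, 0.00 and 0.14 in naive cells, -1.01, -0.78 and -1.08 at 4 h, 0.62, 0.04 and -0.13 at 12 h, and -1.03, -1.82 and -1.58 at 24 h. The 4 h libraries of Mt1 lie below all its other libraries, and its 24 h libraries lie above the naive ones, while the 24 h libraries of Mt2 lie below its naive ones and overlap those at 4 h.

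Relative to naive cells, Mt1 fell by 2.83 ± 0.28 at 4 h, or 7.10-fold (adjusted p = 4.4e-09), and Mt2 by 0.87 ± 0.37 (adjusted p = 0.0369). At 12 h Mt1 was lower by 0.68 ± 0.28 (adjusted p = 0.0312), and Mt2 was not called (0.26 ± 0.37, adjusted p = 0.523). By 24 h Mt1 was higher than in naive cells by 0.81 ± 0.28 (adjusted p = 0.011) and Mt2 lower by 1.39 ± 0.37 (adjusted p = 0.00149). From 12 h to 24 h the genes moved in opposite directions: the fold change at 24 h over 12 h was 1.49 ± 0.28 for Mt1 (adjusted p = 0.000115) and -1.66 ± 0.37 for Mt2 (adjusted p = 0.000636).

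Several of the smaller calls were near the threshold and were lost when 1 library was left out. That of Mt2 at 4 h was lost without naive replicate 2 or 3 or without 4 h replicate 1 or 3 (-0.83, -0.76, -0.85 and -0.81, adjusted p = 0.0833, 0.109, 0.0772 and 0.0893). Mt1 at 12 h lost its call without naive replicate 1 or 2 or 12 h replicate 2 or 3 (-0.57, -0.65, -0.59 and -0.66, adjusted p = 0.106, 0.07, 0.0968 and 0.0669), and Mt1 at 24 h without naive replicate 3 (0.68, adjusted p = 0.0529). With a pseudocount of 1, which shrinks changes of low genes, Mt2 was not called at 4 h (-0.36, adjusted p = 0.173) or at 24 h (-0.51, adjusted p = 0.0524) over naive cells.

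The difference Mt1 minus Mt2, taken within each library, shows the divergence directly. It was 3.64, 4.2 and 3.94 log2 at 24 h, 0.56, 0.74 and 1.06 at 12 h, -0.19, -0.59 and 0.10 at 4 h, and 2.26, 1.69 and 1.23 in naive cells. In in vivo activated cells it was 1.5, 1.92 and 1.82, overlapping the naive libraries. The 24 h libraries overlap no other group. The difference between 24 h and 12 h was 3.14 log2 (two-sided exact permutation p = 0.1, the smallest that 3 against 3 libraries allow; Benjamini-Hochberg adjusted 0.144 over 13 comparisons). Between in vivo activated and naive cells it was 0.02 log2 (exact permutation p = 1.0). Over all 24 libraries, which share 8 group means, the values of Mt1 and Mt2 correlated with Pearson's r of 0.839.

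Mtf1 varied little. Its group means ran between 4.92 and 5.85 log2, a span of 0.93 log2, wider than in 19.5% of the genes tested. Values were 5.30, 5.34 and 5.44 in naive cells, 5.99, 5.91 and 5.65 at 4 h, 5.58, 5.51 and 5.50 at 12 h, and 5.0, 5.11 and 5.12 at 24 h. It was 4.95, 4.87 and 4.94 in in vivo activated cells, the lowest group, in which Mt1 and Mt2 were highest. Every 4 h library was above, and every 24 h and in vivo activated library below, the naive libraries. Relative to naive cells Mtf1 rose by 0.49 ± 0.09 at 4 h (adjusted p = 4.51e-05) and was lower by 0.29 ± 0.09 at 24 h (adjusted p = 0.00656) and by 0.44 ± 0.09 in in vivo activated cells (adjusted p = 0.000135). Mtf1 overlaps the gene 1110065P20Rik on the opposite strand, and the strand setting of the counting is not given in the sources used here.

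Among the exporters, Slc30a1 encodes ZnT1, the plasma membrane exporter and the transporter best known as an MTF-1 target. It was highest in naive cells and did not rise with Mt1 and Mt2. It had 4.60, 4.33 and 4.46 in in vivo activated cells, against 4.62, 4.74 and 4.64 in naive cells, a fold change of -0.20 ± 0.21 that was not called (adjusted p = 0.388). The groups did not overlap, and in a fit on these 6 libraries alone the same -0.20 was called (adjusted p = 0.0417). Relative to naive cells it fell by 0.93 ± 0.21 at 4 h (3.66, 3.75 and 3.80, adjusted p = 0.000395), by 0.65 ± 0.21 at 24 h (adjusted p = 0.00681), and by 1.38 ± 0.21 in peak GC cells (2.76, 3.23 and 3.87, adjusted p = 3.78e-06). Its call at 12 h (-0.54 ± 0.21, adjusted p = 0.0236) was lost without naive replicate 2 or 12 h replicate 1 (-0.50 in both, adjusted p = 0.0634 and 0.0621). In early GC cells it was lower than in in vivo activated cells by 0.94 ± 0.21 (adjusted p = 0.000455). GC libraries scattered from 2.76 to 3.92, all below the naive and in vivo activated ones.

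Slc30a4 encodes ZnT4, which loads zinc into vesicles, and it fell at each step of the GC series. Values were 5.46, 5.52 and 5.85 in early, 4.58, 4.15 and 4.22 in peak, and 3.15, 3.48 and 3.29 in late GC cells. No library of one stage overlaps another stage. The log2 fold change was -1.30 ± 0.12 for peak over early (adjusted p = 1.81e-07), -1.01 ± 0.12 for late over peak (adjusted p = 4.07e-06) and -2.31 ± 0.12, or 4.94-fold, for late over early GC cells (adjusted p = 1.2e-11). Without any 1 library the last of these was -2.39 to -2.19.

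Outside the GC, Slc30a4 had 4.55, 4.67 and 4.68 in in vivo activated cells and 5.79, 6.19 and 5.95 in naive cells, a fold change of -1.34 ± 0.12 (adjusted p = 8.96e-10). Early GC cells were above in vivo activated cells by 0.98 ± 0.12 (adjusted p = 2.89e-07). Peak GC cells were below them by 0.32 ± 0.12 (adjusted p = 0.0256) with overlapping libraries, a call lost without peak GC replicate 2 or 3 or in vivo activated replicate 2 or 3 (-0.24, -0.27, -0.30 and -0.29, adjusted p = 0.129, 0.0898, 0.064 and 0.0715). In vitro it was at the naive level at 4 h (0.02 ± 0.12, adjusted p = 0.895) and lower by 0.60 ± 0.12 at 12 h (adjusted p = 0.000108) and 0.78 ± 0.12 at 24 h (adjusted p = 3.42e-06).

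Slc30a5 encodes ZnT5, which with ZnT6 supplies zinc to enzymes of the early secretory pathway. It was the member set apart in GC cells: 7.69, 7.79 and 7.83 in early, 7.89, 7.64 and 7.81 in peak, and 7.71, 7.66 and 7.42 in late GC cells, against 6.81, 6.87 and 6.80 in in vivo activated cells and 6.93, 7.09 and 7.06 in naive cells. Every GC library was above every other library. The rise over in vivo activated cells was 0.94 ± 0.07 in early GC cells, or 1.91-fold (adjusted p = 4.23e-11), and 0.95 ± 0.07 in peak GC cells (adjusted p = 2.63e-11). Over naive cells it was 0.75 ± 0.07 in peak GC cells (adjusted p = 8.21e-10). In vitro it was not called at 4 h, 12 h or 24 h over naive cells (0.00, -0.10 and -0.10). A small decrease of 0.20 ± 0.07 in in vivo activated cells against naive cells (adjusted p = 0.0127) lost its call without naive replicate 2 (-0.16, adjusted p = 0.0607). The call for late over peak GC cells (-0.19 ± 0.07, adjusted p = 0.0435) was lost without peak GC replicate 1 or 3 or late GC replicate 3 (-0.13, -0.17 and -0.10, adjusted p = 0.203, 0.0893 and 0.285), and with the fit on these 6 libraries alone (adjusted p = 0.224).

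**Figure D3:**
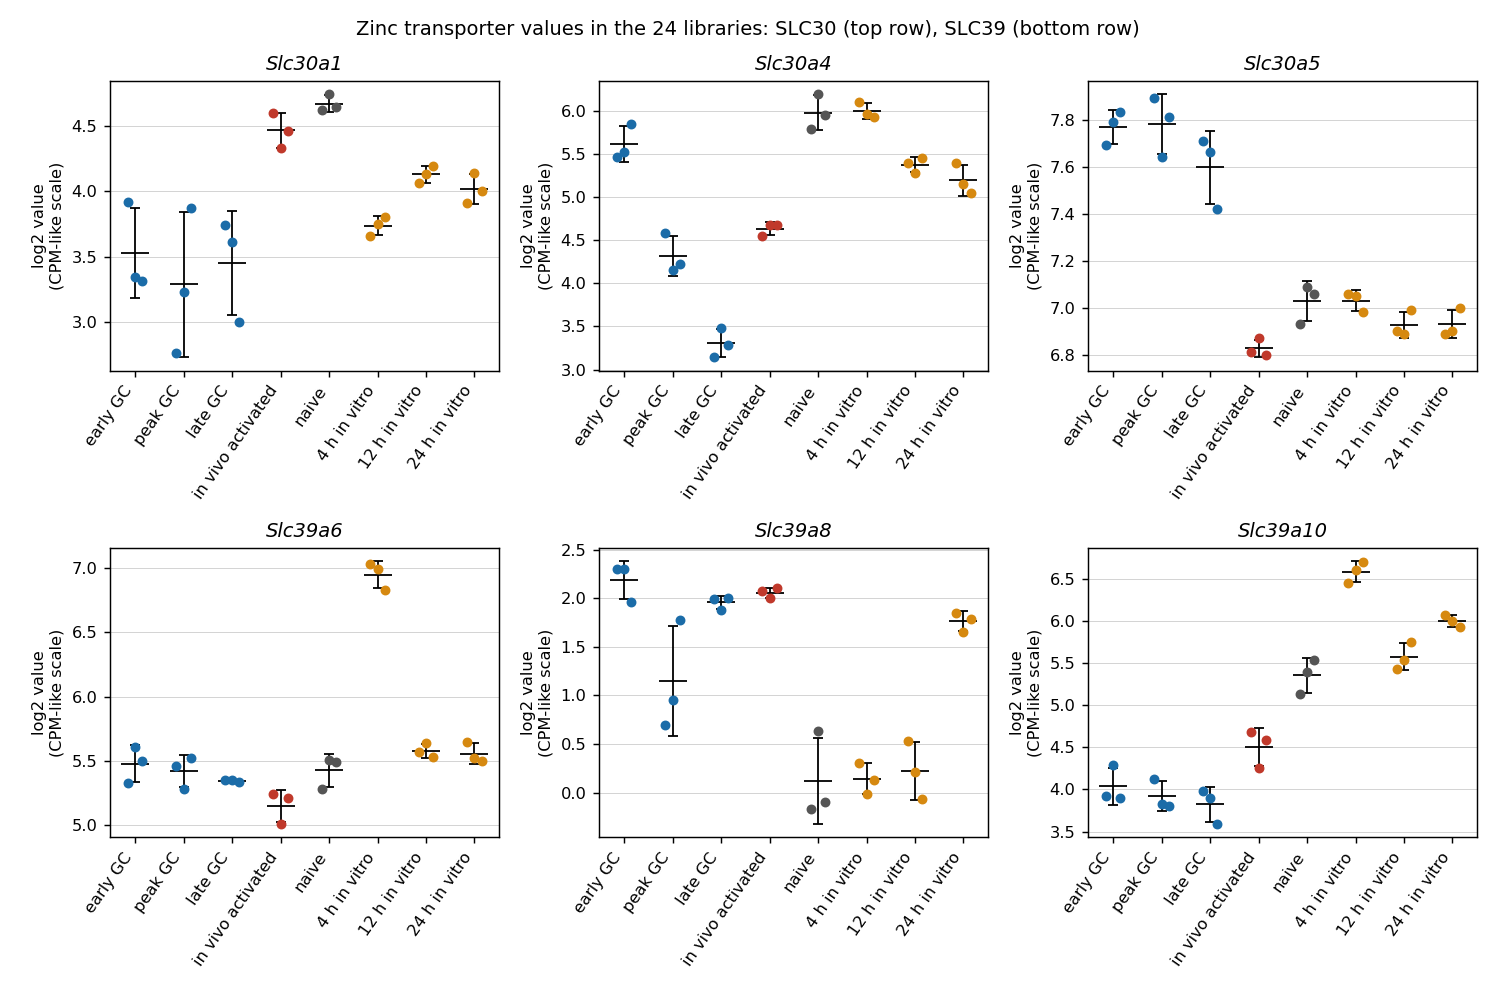
The 6 zinc transporter genes in each of the 24 libraries, exporters (SLC30) in the upper row and importers (SLC39) in the lower. Vertical axes give the deposited log2 value on a CPM-like scale with a range of their own, points are libraries, horizontal bars are group means and error bars 1 SD (n = 3). Slc30a4 steps down over the GC stages (means 5.61, 4.32 and 3.31), Slc30a5 is highest in GC cells, and Slc39a6 and Slc39a10 are highest at 4 h (means 6.95 and 6.58).

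The plot of transporters by library shows the stepwise decrease of Slc30a4, the GC level of Slc30a5 and the 4 h peak of 2 of the 3 importers.

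Slc39a6 and Slc39a10 encode ZIP6 and ZIP10, closely related importers of the plasma membrane. Slc39a6 had 5.28, 5.51 and 5.49 in naive cells, 7.03, 6.99 and 6.83 at 4 h, 5.57, 5.64 and 5.53 at 12 h, and 5.65, 5.52 and 5.50 at 24 h. Slc39a10 had 5.13, 5.39 and 5.54 in naive cells, 6.45, 6.60 and 6.70 at 4 h, 5.43, 5.54 and 5.75 at 12 h, and 6.07, 6.0 and 5.92 at 24 h. For both genes the 4 h libraries lie above all the other libraries of the 24. At 4 h over naive cells Slc39a6 rose by 1.52 ± 0.08, or 2.87-fold (adjusted p = 4.32e-14), and Slc39a10 by 1.23 ± 0.13, or 2.35-fold (adjusted p = 2.04e-08). At 12 h against 4 h they fell by 1.37 ± 0.08 (adjusted p = 2.26e-12) and 1.01 ± 0.13 (adjusted p = 1.02e-06). At 24 h over naive cells Slc39a10 was higher by 0.64 ± 0.13 (adjusted p = 0.000137) and Slc39a6 was not called (0.13 ± 0.08, adjusted p = 0.146). Slc39a6 overlaps Elp2 on the opposite strand, and the strand setting of the counting is not given in the sources used here.

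In cells activated in vivo and in the GC, Slc39a10 was low. It had 3.92, 4.29 and 3.90 in early, 4.13, 3.83 and 3.81 in peak, and 3.98, 3.90 and 3.59 in late GC cells. It had 4.68, 4.25 and 4.59 in in vivo activated cells, and all of these libraries lie below every naive library. Relative to naive cells it fell by 1.43 ± 0.13 in peak GC cells, or 2.70-fold (adjusted p = 1.62e-09), and by 0.85 ± 0.13 in in vivo activated cells (adjusted p = 5.51e-06). It was lower than in in vivo activated cells by 0.47 ± 0.13 in early GC cells (adjusted p = 0.00374) and by 0.59 ± 0.13 in peak GC cells (adjusted p = 0.00055). Slc39a6 spanned 5.01 to 5.61 over all in vivo activated and GC libraries. In in vivo activated cells it was lower than in naive cells by 0.27 ± 0.08 (adjusted p = 0.00413). Compared with in vivo activated cells it was higher by 0.33 ± 0.08 in early GC cells (adjusted p = 0.00121) and by 0.27 ± 0.08 in peak GC cells (adjusted p = 0.00535).

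Slc39a8 encodes ZIP8, an importer of zinc and manganese. It was the lowest of the 9 per kilobase of the main transcript in every group except 24 h, and that exception depends on the transcript chosen. It had 2.07, 2.0 and 2.1 in in vivo activated cells, against -0.17, 0.63 and -0.10 in naive cells, a rise of 1.93 ± 0.23, or 3.82-fold (adjusted p = 7.65e-08). In vitro it stayed near the naive level at 4 h (0.31, -0.01 and 0.13) and 12 h (0.53, 0.21 and -0.07) and reached 1.85, 1.65 and 1.79 at 24 h. The 24 h and in vivo activated libraries lie above all naive, 4 h and 12 h libraries. At 24 h the rise was 1.64 ± 0.23 over naive cells (adjusted p = 7.65e-07) and 1.54 ± 0.23 over 12 h (adjusted p = 7.21e-06). Macrophage and monocyte markers summed to 244 to 283 at 24 h, against 160 to 172 in naive cells, with 2 of 10 higher and 7 lower, and their part was not tested.

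In the GC Slc39a8 dipped at the peak stage, with 2.30, 2.30 and 1.96 in early, 0.70, 0.95 and 1.78 in peak, and 1.99, 1.88 and 2.0 in late GC cells. The fold change was -1.04 ± 0.23 for peak over early (adjusted p = 0.00387) and 0.81 ± 0.23 for late over peak GC cells (adjusted p = 0.0107), and 1.02 ± 0.23 for peak GC over naive cells (adjusted p = 0.000374). The call for late over peak was lost without peak GC replicate 1 (0.59, adjusted p = 0.0783), and both stage calls were lost in fits on their 6 libraries alone (adjusted p = 0.073 for peak over early and 0.101 for late over peak).

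Within the GC series, Mt1 had 2.30, 2.48 and 2.38 in late GC cells, above all 3 early GC libraries, with a rise of 1.01 ± 0.28 for late over early (adjusted p = 0.00792). Mt2 had 1.0, 1.15 and 1.87 in late GC cells and was not called over early GC cells (0.76 ± 0.37, adjusted p = 0.115). Late over peak GC cells gave 0.70 ± 0.28 for Mt1 (adjusted p = 0.0601) and 0.81 ± 0.37 for Mt2 (adjusted p = 0.0966), neither called. Without peak GC replicate 3 both were called (1.05 and 1.15, adjusted p = 0.00479 and 0.0271), and without peak GC replicate 1 Mt1 was called for peak over early (0.81, adjusted p = 0.0115).

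Markers of other cell types moved with the late stage. Of 10 macrophage and monocyte markers tested, 6 were higher and 0 lower in late than in peak GC cells, with sums of 588 to 2360 in late, 147 to 332 in peak and 234 to 379 in early GC cells. All 7 neutrophil markers tested were higher, with sums of 86.0 to 1130 in late, 23.3 to 101 in peak and 26.9 to 132 in early GC cells. All 4 erythroid markers tested were higher, with sums of 731 to 1400 in late, 170 to 203 in peak and 306 to 736 in early GC cells; Hba-a1 was at the floor in all 3 stages. For late over early GC cells, 4 of 10 macrophage, 5 of 7 neutrophil and 2 of 4 erythroid markers were higher and 0 lower. Of 6 T-cell markers tested 4 were higher and 0 lower for late over early, and 1 and 0 for late over peak. Of 5 dendritic cell markers 2 were higher and 0 lower for late over early, and 3 and 1 for late over peak. Of 5 plasma cell markers 2 were higher and 0 lower in both. Of 3 stromal markers 0 were higher and 1 lower for late over early, and 0 and 0 for late over peak. The part of other cells in the late GC values of Mt1, Slc39a8 and Slc30a4 was not tested.

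Counted over the 9 genes, 3 were higher and 5 lower in in vivo activated than in naive cells, where 79.3% of all genes tested were called, 39.2% higher and 40.1% lower; the median log2 fold change was -0.20 over the 9 and -0.02 over all genes tested. In peak GC against naive cells 2 were higher and 4 lower (79.7% of all genes called, 40.5% higher and 39.3% lower). Against in vivo activated cells, 4 were higher and 4 lower in early GC cells (69.5% called, 33.2% higher and 36.4% lower) and 2 higher and 6 lower in peak GC cells (69.2% called, 34.1% higher and 35% lower). Peak against early GC cells gave 0 higher and 2 lower (13.2% called, 5.77% higher and 7.42% lower), late against peak 1 and 2 (32.6% called, 12% higher and 20.6% lower), and late against early 1 and 1 (35.1% called, 13% higher and 22.1% lower).

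In vitro, against naive cells, 3 were higher and 3 lower at 4 h (78% of all genes called, 38.9% higher and 39.1% lower), 0 and 3 at 12 h (80.9% called, 41.7% higher and 39.2% lower) and 3 and 4 at 24 h (84.8% called, 42.2% higher and 42.5% lower). At 12 h against 4 h 2 were higher and 4 lower (61.9% called, 34.6% higher and 27.2% lower), at 24 h against 12 h 3 and 2 (57.3% called, 22.5% higher and 34.8% lower), and at 24 h against 4 h 2 and 4 (76% called, 36.8% higher and 39.2% lower). At 12 h over naive cells fewer of the 9 were called than the share of all genes, 3 of 9 against 80.9%. The heat map of fold changes shows the largest changes in the Mt1 and Mt2 rows, where in vivo activated cells are compared.

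**Figure D4:**
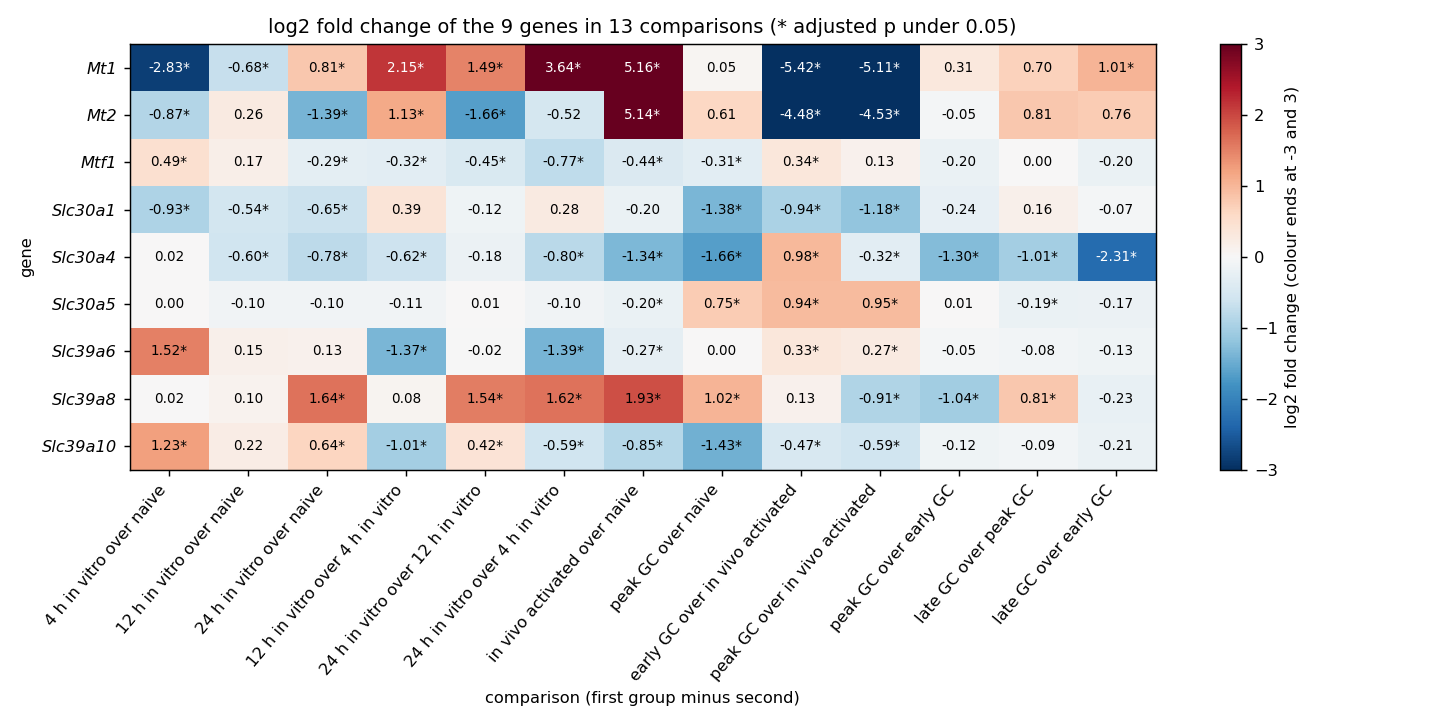
Log2 fold change of the 9 genes in the 13 comparisons, first-named group minus second-named, printed in each cell and coloured with ends at -3 and 3. An asterisk marks an adjusted p under 0.05. Mt1 and Mt2 stand at 5.16 and 5.14 in in vivo activated over naive cells, at -5.42 and -4.48 in early GC over in vivo activated cells and at -5.11 and -4.53 in peak GC over in vivo activated cells.

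Of 21 other zinc transporter and metallothionein genes, 16 were tested. Mt3, Mt4, Slc30a8, Slc39a2 and Slc39a12 were too low. In in vivo activated against naive cells 5 of the 16 rose and 4 fell (39.2% and 40.1% of all genes), with a median log2 fold change of 0.13. Slc39a1, which encodes a plasma membrane importer, rose by 0.96 ± 0.06 (6.19 against 5.22 log2, adjusted p = 2.25e-13). Tmem163, which encodes a zinc-binding protein of vesicles, fell by 1.91 ± 0.26 (2.85 log2 in in vivo activated against 4.77 in naive cells, adjusted p = 6.3e-07).

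In vitro, Slc39a14, which encodes ZIP14, an importer of zinc, iron and manganese, averaged 3.40 log2 in naive cells, 5.56 at 4 h, 5.67 at 12 h and 5.26 at 24 h, a rise of 2.16 ± 0.12 at 4 h (adjusted p = 1.06e-13) and 2.27 ± 0.12 at 12 h (adjusted p = 3.26e-14). Slc30a2, which encodes ZnT2, a vesicle transporter, averaged -4.45, -3.20, 0.14 and 0.93 log2 at these times. Its log2 fold change of 5.38 at 24 h over naive cells starts near the floor. It passed the filter on low values only with its 24 h libraries, so this value is a description. Slc30a3, which encodes ZnT3 of synaptic vesicles, averaged -3.81, -3.60, -4.12 and 0.69 log2 at these times and passed the filter through its 24 h libraries alone. Slc30a2 and Slc30a3 are both among the genes counted below as higher at 24 h. Against naive cells 9 of the 16 were higher and 4 lower at 4 h, 9 and 4 at 12 h, and 8 and 5 at 24 h (all genes 38.9% and 39.1%, 41.7% and 39.2%, and 42.2% and 42.5%), with medians of 0.35, 0.32 and 0.24, against -0.01, 0.03 and -0.01 over all genes.

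In GC cells, Tmem163 averaged -0.65 log2 in early and -1.84 in peak GC cells, against 4.77 in naive cells, a fall of 6.60 ± 0.26 at the peak stage (adjusted p = 1.45e-16). Slc39a11 rose over naive cells by 1.36 ± 0.07 in peak GC cells (5.75 against 4.39 log2, adjusted p = 4.09e-14) and Slc39a3, a plasma membrane importer gene, fell by 1.90 ± 0.10 (2.68 against 4.58 log2, adjusted p = 3.13e-14). In early GC against in vivo activated cells 4 of the 16 were higher and 11 lower (all genes 33.2% and 36.4%), with a median of -0.70, and in peak GC against in vivo activated cells 3 and 10 (all genes 34.1% and 35%), with a median of -0.53. Medians over all genes in these comparisons were -0.03 and -0.01.

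**Figure D5:**
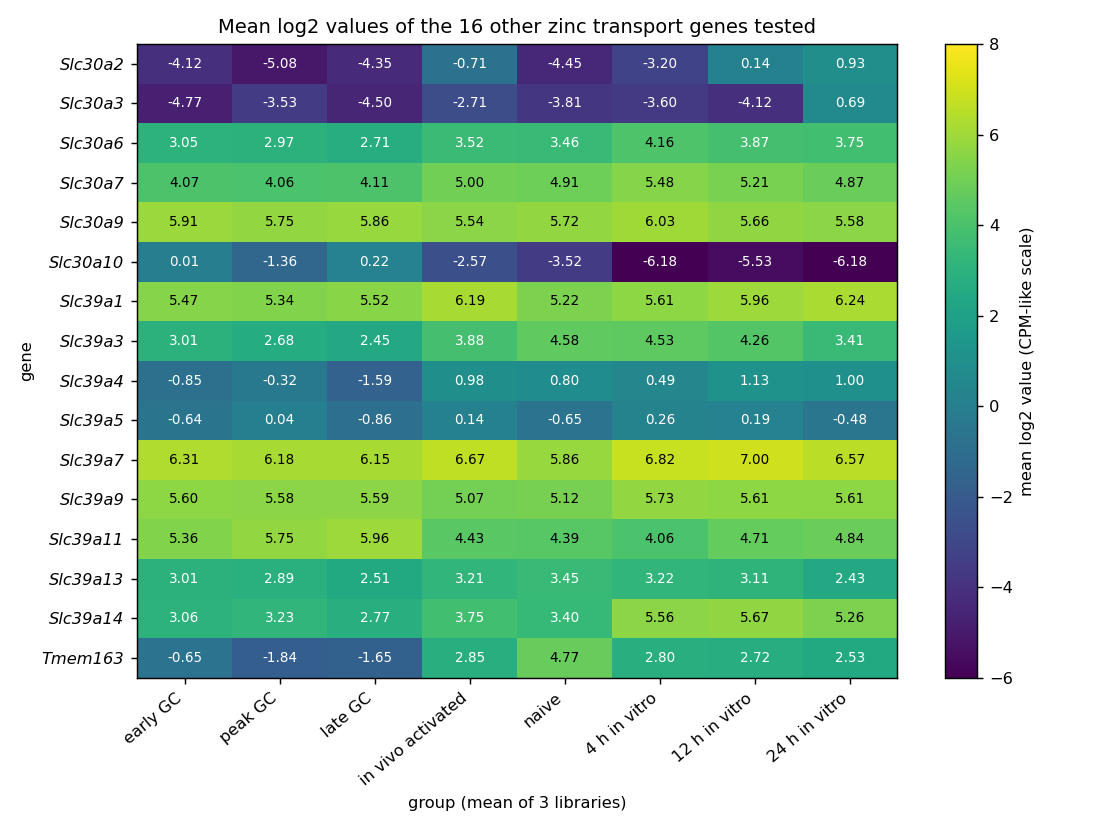
Mean log2 values of the 16 other zinc transporter genes tested, by group (mean of 3 libraries, CPM-like scale; colour from -6 to 8). Tmem163 is at 4.77 in naive cells and at -0.65 to -1.84 in GC cells, and Slc39a14 is at 5.26 to 5.67 at the 3 in vitro times, against 3.40 in naive cells.

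The heat map of the other zinc transporters shows that Slc30a10 was at the floor at 4 h and 24 h and averaged 0.01 log2 in early and 0.22 log2 in late GC cells. Among copper and iron genes, metals that metallothioneins and ZIP proteins also handle, 8 of 18 were higher and 7 lower in in vivo activated than in naive cells (39.2% and 40.1% of all genes), with a median of -0.11. Among 9 of 10 glucocorticoid-responsive genes tested, listed because glucocorticoids also induce metallothioneins, 1 was higher (Fkbp5, 0.86 ± 0.07, adjusted p = 3.07e-11) and 8 lower in in vivo activated than in naive cells (39.2% and 40.1% of all genes), with a median of -1.49. Those that fell included Klf9 (-2.81 ± 0.23, adjusted p = 3.41e-10) and Dusp1 (-2.13 ± 0.24, adjusted p = 1.5e-07).

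By Pearson's r over the 24 libraries, which share 8 group means, the genes most like Mt1 were Fuca2 (0.944), Pts (0.942) and Kdelr1 (0.931), and those most like Mt2 were Kdelr1 (0.899), Fip1l1 (0.891) and Dnajc7 (0.876). Slc30a5 was most like Adgb (0.97) and S1pr2 (0.967), Slc39a6 most like Slc7a1 (0.971), Slc39a10 most like Trim44 (0.971), Slc39a8 most like Arl6ip6 (0.935), Slc30a4 most like Rbpjl (0.926), Mtf1 most like Rnf220 (0.925) and Slc30a1 most like Zfp658 (0.918). Among the 9 themselves the highest positive r after that of the metallothionein pair was 0.808 between Mtf1 and Slc39a6.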

How the data were processed

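Splenic B cells were sequenced with a stranded mRNA kit as paired reads of 75 bases, per the labels' protocols. The submitters' processing notes name mm10 as the genome build, STAR 2.6.0c, cutadapt 1.8.3, limma, Subread 1.6.2 with featureCounts, and FastQC 0.11.5; counting options and limma steps are not given in the sources used here. The deposited values are log2 values on a CPM-like scale: 2 to their power sums to 990678 to 1008194 per library. The libraries share nearly one distribution (0.03 log2 range at a fixed rank), and the gene means of the replicate numbers differ by at most 0.0009 log2. Depth is unknown, so no counting interval was computed, and this number of libraries limits the precision.

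The values were tested with limma 3.58.1 in R 4.3.3, with 1 mean per group over 24 libraries and 16 residual degrees of freedom, using eBayes with trend and robust set. The replicate-number means are equal in the deposited values, so 14 may be nearer the true number. Genes with a log2 value of at least 0 in at least 3 libraries were tested, and p-values were adjusted by Benjamini-Hochberg over 11885 genes; under 0.05 is called. Sequences came from RefSeq (GRCm38.p6) and GENCODE M21. Python 3.11.15, pandas 2.3.3, scipy 1.17.1 and matplotlib 3.10.9 were used. Alternatives were the filter, a pseudocount, the moderation, the scaling, the libraries fitted, leaving out each library and a replicate block.

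The 9 genes, the lists and the tests were chosen with earlier results of these data known. By rule, the 9 are named in full, each other list gives by name at most 2 called genes per direction, those of largest fold change, and up to 3 most similar genes per member; marker genes serve the label check. The limma step was run on simulated data with independent noise, and a pass limit was lowered after a first run. That run is not used as support for any call. A few genes are not reported here.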

Additional observations from a re-analysis of the deposited data

Results flagged for a closer look

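Mt1 and Mtf1 were called in opposite directions over naive cells at different times in vitro, and the times themselves differed in a direct comparison. For Mt1, which was lower than naive at 4 h and 12 h and higher at 24 h, the log2 fold change was 3.64 ± 0.28 for 24 h over 4 h (adjusted p = 8.69e-11) and 1.49 ± 0.28 for 24 h over 12 h (adjusted p = 0.000115). For Mtf1, which was higher than naive at 4 h and lower at 24 h, it was -0.77 ± 0.09 for 24 h over 4 h (adjusted p = 7.83e-08). Without any 1 library these ran between 3.54 and 3.74, between 1.40 and 1.59, and between -0.88 and -0.70.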

How the results depend on the processing

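No called fold change reversed its direction. Leaving out 1 library turned the sign of 19 of the 117 fold changes, none of them called in all 24 libraries; the values ran as follows. For peak over early GC cells they were -0.04 to 0.81 for Mt1, -0.39 to 0.40 for Mt2, -0.53 to 0.03 for Slc30a1, -0.04 to 0.08 for Slc30a5, -0.13 to 0.02 for Slc39a6 and -0.22 to 0.01 for Slc39a10. For late over peak GC cells they were -0.10 to 0.09 for Mtf1, -0.10 to 0.46 for Slc30a1 and -0.17 to 0.02 for Slc39a10, and for late over early GC cells -0.22 to 0.15 for Slc30a1. For peak GC over naive cells they were -0.31 to 0.54 for Mt1 and -0.07 to 0.07 for Slc39a6. At 4 h over naive cells they were -0.08 to 0.13 for Slc30a4, -0.04 to 0.04 for Slc30a5 and -0.12 to 0.27 for Slc39a8, at 12 h over naive cells -0.05 to 0.35 for Slc39a8, at 12 h over 4 h -0.07 to 0.23 for Slc39a8, and at 24 h over 12 h -0.03 to 0.04 for Slc30a5 and -0.07 to 0.01 for Slc39a6. The number of the 9 genes called at 12 h over naive cells was 3, and was 1 with no filter on low values and 5 with only the 2 groups fitted. For peak over early GC cells it was 2, and was 1 with a log2 value of at least 3 in at least 3 libraries, where Slc39a8 is not tested, and 1 with only the 2 groups fitted. For late over peak GC cells it was 3, and was 1 with only the 2 groups fitted. Leaving out 1 library gave 1 to 3 for 12 h over naive cells (1 without naive replicate 2), 1 to 4 for late over peak GC cells (1 without peak GC replicate 1), 2 to 3 for peak over early GC cells and 6 to 8 for peak GC over naive cells. Of 117 single fold changes, the call differed in 5 with no filter, 9 with only the 2 groups fitted, 3 with a pseudocount of 1, 1 with no variance trend and no robust moderation, 0 with median centring, and 18 without some library; the cause was not tested.

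With the replicate number as a block (14 residual degrees of freedom) 1 of 117 calls changed: Slc30a5 for late over peak GC cells had an adjusted p of 0.0655, which leaves 2 of the 9 called there. Deviations from the group means were also correlated over 84 pairs of libraries with the same number. The correlation was -0.369 to 0.112, with a median of -0.127 and 1 pair over 0.1. Equal replicate-number means in the deposited values make these correlations negative on average. They therefore cannot show whether libraries with the same number were paired, and the main fit took no pairing.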

Other observations

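Mt2 and Mt1 lie next to each other on chromosome 8, with Mt3 and Mt4 on the same side of Mt2. Within 200 kb of the pair, in in vivo activated over naive cells, the log2 fold change was 1.52 ± 0.07 for Nudt21 (adjusted p = 1.48e-15), 1.46 ± 0.07 for Nup93 (adjusted p = 1.71e-15) and -1.22 ± 0.12 for Bbs2 (adjusted p = 1.93e-09). Ogfod1 (0.00 ± 0.06, adjusted p = 0.992) and Slc12a3 (0.36 ± 0.35, adjusted p = 0.339) were not called. Mt3 and Mt4 were at the floor in both groups and were not tested. In the same comparison the values were 5.16 for Mt1 and 5.14 for Mt2. A shared cause in this region was not tested.

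In the copper and iron list, Tfrc, which encodes the transferrin receptor, was higher by 2.64 ± 0.14 at 24 h over naive cells (adjusted p = 1.76e-13) and Slc40a1, which encodes the iron exporter ferroportin, was lower by 5.48 ± 0.48 (adjusted p = 3.58e-10). In early GC over in vivo activated cells Slc40a1 was higher by 2.74 ± 0.48 (adjusted p = 2.86e-05) and Steap3 by 2.69 ± 0.18 (adjusted p = 4.64e-12).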
